A study of Rattus norvegicus with 6 samples.

Results

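Ependymal nuclei of the rat nucleus accumbens were chosen from single-nucleus RNA counts by a rule on raw unique molecular identifiers (UMIs, each a captured RNA molecule). A nucleus needed at least 500 detected genes, at most 5% of UMIs in mitochondrial genes and at least 5 UMIs summed over the ependymal markers Foxj1, Ccdc153, Dnah11, Spag17 and Cfap43. It could hold at most 1 UMI of Gad1 and Gad2 (neurons) and none of Mog or Opalin (oligodendrocytes) or Csf1r (microglia). The rule found 154 nuclei among 61609 that passed the 2 quality filters, out of 64260 barcodes. Since the rule uses measured RNA, the levels of these nuclei against other nuclei are given as a description, with no test.

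Ependymal cells line the ventricles of the brain. They carry tufts of motile cilia that move cerebrospinal fluid, and their nuclei transcribe the large set of genes for the axoneme, the microtubule core of a motile cilium. The outer and inner dynein arms are the motors of the axoneme, the radial spokes and the central pair regulate them, and the nexin-dynein regulatory complex holds neighbouring microtubule doublets together. Transcription factors of the FOXJ1 and RFX families switch these genes on.

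Adult male and female Sprague-Dawley rats, 90 to 120 days old, had self-administered heroin in both groups. They worked for 7 days at 1 response per infusion and 4 days at 3 responses, then had a progressive ratio test on day 12 and sessions at 3 responses on days 13 and 14. After the last session they were given saline or naloxone, which blocks opioid receptors, and brains were taken 1 h later. The comparison asks what differs 1 h after naloxone on the same heroin history. The 6 libraries pool tissue across sexes from 12 rats, of which 6 were male and 6 female, and are called saline 1, 2 and 3 and naloxone 4, 5 and 6 after their labels. Animals without heroin are not analysed here, and p-values below measure the spread between these 6 pooled libraries. In the test of the difference from astrocytes, that spread was in effect fitted over all genes and not gene by gene.

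The libraries held between 55739350 and 76272798 UMIs, and the median nucleus held between 4450 and 6602. The labels speak of 44592 sequenced nuclei, fewer than the barcodes in the files. Barcodes found in more than 1 library numbered 463, and 1 of them belonged to an ependymal nucleus, which was ependymal in 1 library only. Nuclei with both Xist and Y-linked UMIs, which pooling of the sexes makes visible, made up 8.59% of all nuclei that passed and 1.30% of the ependymal nuclei (2 of 154). A doublet caller marked 2 of the 154.

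The marker sum came from 3 of the 5 marker genes. Foxj1, the master regulator of motile cilia, had 0 UMIs in 154 nuclei, which allows a share of up to 1.95% of nuclei with a UMI (counting error only), and it had 3 UMIs in all nuclei of the series. Ccdc153 is not a symbol of the files. RefSeq gives it as a synonym of Drc12, which had 121 UMIs in 72 of the 154 nuclei, and adding Drc12 to the sum would give 161 nuclei. Dnah11, an outer arm dynein heavy chain, supplied 49.4% of the marker UMIs (825, in 151 nuclei). Spag17, a central pair protein, supplied 28.1% (470, in 124 nuclei) and Cfap43, a protein that tethers dynein to the doublet, 22.5% (375, in 123 nuclei). All 3 genes were detected in 109 nuclei, 2 of them in 26 and 1 in 19.

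The marker sum ran from 5 to 49 with a median of 9. Just inside the limit, 28 nuclei had a sum of 5 and 23 had a sum of 6. Just outside it, 28 nuclei met every other condition with a sum of 4. A sum of at least 5 together with a UMI count that broke an exclusion was found in 280 further nuclei, of which 232 had at least 5 UMIs of Dnah11 and little other axonemal RNA.

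Axonemal genes that the rule did not use split the 154 nuclei. For 108 such genes, taken from lists of dynein arms, dynein assembly factors, radial spokes, central pair, nexin-dynein complex and microtubule inner proteins, 138 nuclei gave at least 1.86% of their UMIs (median 6.65%, highest 8.92%). The other 16 gave at most 0.852% (median 0.255%), close to the 0.225% of pooled astrocyte UMIs. No nucleus lay between these values, and a limit of 1%, chosen after seeing them, is used below to name nuclei with axonemal RNA. Dnah11 was the only marker in 14 of the 16 and in 3 of the 138. The label of ependymal cells therefore holds for the 138 by these genes and does not hold for the 16. Values for all 154 are those of the rule's whole choice, these 16 included.

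**Figure D1:**
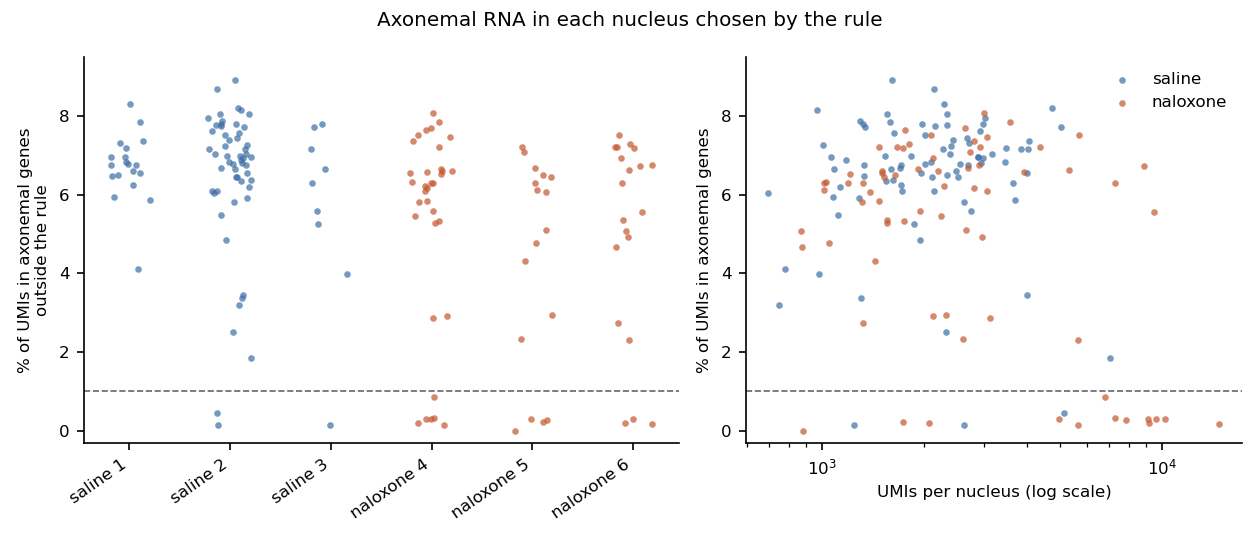
Each point is 1 of the 154 nuclei chosen by the rule. The y axis gives the percent of its UMIs in 108 axonemal genes outside the rule, by library (left) and against its UMI total on a log scale (right); blue is saline, orange naloxone, and the dashed line is 1%. The 16 nuclei under the line lie at 0.852% or less, and 13 of them come from naloxone libraries.

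The 16 nuclei were unevenly placed. Saline libraries held 3 of them (0, 2 and 1) and naloxone libraries 13 (6, 4 and 3). They were deeper, with a median of 6226 UMIs against 2116 in the 138, and supplied 23.0% of all UMIs of the 154. Genes of a neuron list took 0.510% of their UMIs against 0.0904% in the 138, and reached at least 0.5% in 8 of the 16 and in 1 of the 138. Shares and the comparison of naloxone with saline are therefore given for all 154 nuclei and for the 138 with axonemal RNA.

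Nuclei chosen by the rule made up between 0.0968% and 0.379% of the nuclei of a library. Saline 1 had 19 (0.241%, 95% Wilson interval 0.154 to 0.376), saline 2 had 55 (0.379%, 0.291 to 0.493) and saline 3 had 9 (0.0968%, 0.0510 to 0.184). Naloxone 4 had 34 (0.317%, 0.227 to 0.443), naloxone 5 had 17 (0.155%, 0.0968 to 0.248) and naloxone 6 had 20 (0.244%, 0.158 to 0.376). The lowest and the highest share were both saline libraries, whose intervals do not meet. The group means were 0.239% ± 0.141 (SD, n = 3) with saline and 0.239% ± 0.0812 (SD, n = 3) with naloxone, a difference of -0.000196 percentage points (exact two-sided permutation test, p = 1.00; the smallest p that 3 libraries against 3 allow is 0.1). For the 138 nuclei with axonemal RNA the means were 0.231% ± 0.140 and 0.196% ± 0.0720 (SD, n = 3 each; exact permutation p = 0.800). After thinning each nucleus to 1000 UMIs and asking for a marker sum of at least 2, the difference was -0.0382 points (exact permutation p = 0.800).

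**Figure D2:**
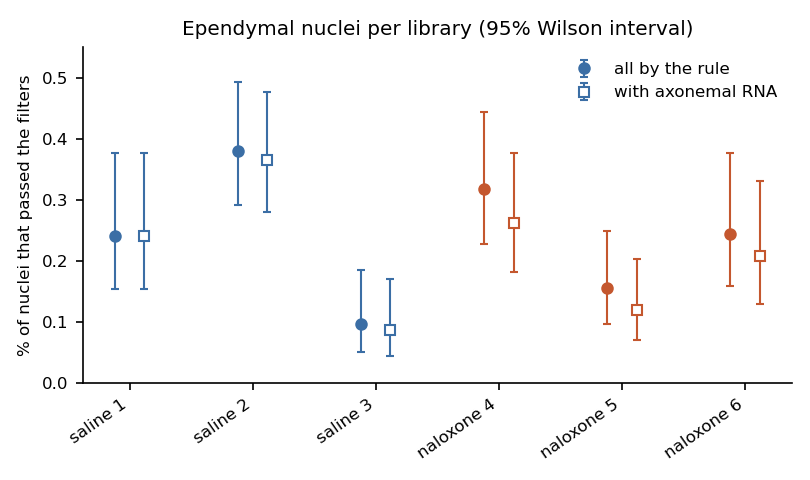
Percent of nuclei that passed the filters and were chosen by the rule (y axis) in each of the 6 libraries, with 95% Wilson intervals that cover counting error only. Filled circles are all 154 nuclei by the rule and open squares the 138 with axonemal RNA; saline 3 at 0.0968% and saline 2 at 0.379% bound the naloxone libraries.

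The sex of a nucleus could be read from Xist and Y-linked genes for 86 of the 154. Among male nuclei the share chosen by the rule was 0.181% ± 0.0958 and among female nuclei 0.196% ± 0.122 (SD, n = 6 libraries each). Male minus female was -0.0159 points (exact permutation test of the signs of the 6 paired differences, two-sided, p = 0.875, smallest possible 0.031). Naloxone 4 stood apart, with 20 female and 3 male nuclei among those chosen. Without it the difference was 0.0483 points (exact sign-flip permutation p = 0.312).

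The nuclei chosen by the rule carried little RNA. Their median lay between 1735 and 3671 UMIs by library, below that of astrocyte nuclei (2170 to 3561) in every library but naloxone 6. The median mitochondrial share was higher than in astrocyte nuclei in every library, at 0.537% to 1.35% against 0.176% to 0.849%. The summed RNA of the chosen nuclei of a library held 24292 to 121938 UMIs, and 21671 to 115540 in nuclei with axonemal RNA. Levels are given as CPM, the UMIs of a gene scaled to a fixed total of UMIs in each summed library, as means over the 6 libraries for the 138 nuclei with axonemal RNA, beside 3680 astrocyte nuclei and all other nuclei. Astrocyte nuclei met the same exclusions and were chosen by at least 4 UMIs over Gja1, Aqp4, Slc1a3 and Ntsr2, at most 1 UMI of the ependymal markers and none of Pdgfra, so the choice raises the first of these genes and lowers the markers there. CPM is not scaled by gene length, so it is compared between nuclei and not between genes.

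Dyneins, central pair proteins and other ciliary genes were among those that led the 154 nuclei over all others. Ranked by the ratio of CPM in members to the higher of astrocytes and all other nuclei, with 5 CPM added to each, the 20 leading genes were Rp1, Ccdc162, Tmem212, Cdhr4, Spag16, Cfap44, Dnah6, Wdr49, Spag17, Dnah12, Dnah3, Ak7, Cfap43, Dcdc1-ps1, Spata18, Bbox1, Dnai3, Rgs22, Lrrc71 and Ak9. Their ratios ran from 88.8 (Ak9) to 358 (Rp1). Rp1, a microtubule-binding protein first known from photoreceptors, stood at 3326 ± 781 CPM (SD, n = 6) in nuclei with axonemal RNA and at 0.159 CPM in astrocytes. Tmem212 stood at 1736 ± 149 CPM against 0.257 CPM, and Cdhr4, a cadherin-related protein, at 1779 ± 134 CPM against 0.177 CPM. Ccdc162 stood at 4415 ± 756 CPM against 2.09 CPM. Spag17 and Cfap43 are markers of the rule and their place in this ranking is no finding.

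Regulators of ciliogenesis other than Foxj1 were detected. Foxj1 had only 3 UMIs in all nuclei of the series, so its 0 UMIs here cannot be read as absence. Of 14 listed factors outside the rule, 10 had at least 10 UMIs in the 138 nuclei. Of these, 9 were more than 2-fold above astrocytes. Among all 25625 genes, 6142 had at least 10 UMIs there and 1696 of these (6.62% of all genes) were more than 2-fold above. Shares of all genes at 2-fold, here and below, count genes detected or not, so they are a low base for lists of detected genes. Rfx3, an RFX factor of ciliary genes, stood at 1153, 1039 and 1430 CPM in saline 1, 2 and 3 and at 1117, 801 and 1244 CPM in naloxone 4, 5 and 6 (mean 1131 ± 210 SD, n = 6, against 356 in astrocytes). The 2 groups of libraries overlapped. Rfx2 stood at 365 ± 119 CPM against 34.4 CPM. Myb, needed for the amplification of centrioles, stood at 595 ± 55.6 CPM against 0.456 CPM. The list and its counts also hold Fhad1, which is not an established transcription factor, at 1428 ± 240 CPM against 36.0 CPM. Mcidas and Ccno, which act earlier in multiciliated cells, had 0 UMIs, below 9.07 CPM, the level that 3 counts in these nuclei give. Tp73, named after its values were seen, is another regulator of multiciliated cells and stood at 195 ± 41.2 CPM against 0.104 CPM.

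RFX factors bind the X-box, a motif with 2 arms, and an arm of it reads GTTGCC, which is GGCAAC on the opposite strand. The arm was searched on both strands in RefSeq promoters of build GRCr8, from 250 bases before to 50 after the annotated start. The counts were made on another build, so promoters were matched to genes by Ensembl identifier or, where that failed, by symbol. Among 97 axonemal genes outside the rule with at least 10 UMIs, 80 had a promoter in the table and 29 of these (36.2%) held the arm. The share was 12.2% of all 33469 promoters and 14.8% of the 4948 matched among genes with at least 10 UMIs in these nuclei. Among the 20 leading genes it was 14.3% (2 of 14, Cfap44 and Wdr49). A match describes the letters and not binding.

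Promoters with the arm are shown for Dnah11, the largest source of marker UMIs, for Cfap44, a leading gene, and for the central pair genes Hydin and Spef2, each 5′ to 3′ with the arm in capitals. Dnah11 is at chr6:145298474-145298773 on the minus strand, Cfap44 at chr11:69789856-69790155 on the minus strand, Hydin at chr19:55146216-55146515 on the plus strand and Spef2 at chr2:60421801-60422100 on the minus strand (all GRCr8). Counted from 0 at the annotated start, the arm begins at base 16 in Dnah11, at -9 in Cfap44, at -6 in Hydin and at 8 in Spef2.
Dnah11: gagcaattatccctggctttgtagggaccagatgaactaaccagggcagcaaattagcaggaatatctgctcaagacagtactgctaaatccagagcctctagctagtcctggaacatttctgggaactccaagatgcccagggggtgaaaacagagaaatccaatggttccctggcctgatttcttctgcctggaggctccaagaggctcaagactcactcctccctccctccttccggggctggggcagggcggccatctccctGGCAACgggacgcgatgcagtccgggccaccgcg
Cfap44: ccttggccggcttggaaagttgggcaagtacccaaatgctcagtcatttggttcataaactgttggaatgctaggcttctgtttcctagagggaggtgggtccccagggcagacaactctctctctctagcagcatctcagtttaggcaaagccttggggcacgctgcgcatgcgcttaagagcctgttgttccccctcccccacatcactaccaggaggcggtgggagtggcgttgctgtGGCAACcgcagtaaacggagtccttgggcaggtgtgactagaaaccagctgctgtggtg
Hydin: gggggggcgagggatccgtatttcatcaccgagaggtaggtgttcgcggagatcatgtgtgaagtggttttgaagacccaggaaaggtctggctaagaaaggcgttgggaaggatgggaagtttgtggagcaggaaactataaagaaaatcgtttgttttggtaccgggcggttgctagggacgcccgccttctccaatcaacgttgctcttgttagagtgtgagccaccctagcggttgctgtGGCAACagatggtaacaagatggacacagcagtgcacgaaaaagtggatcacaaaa
Spef2: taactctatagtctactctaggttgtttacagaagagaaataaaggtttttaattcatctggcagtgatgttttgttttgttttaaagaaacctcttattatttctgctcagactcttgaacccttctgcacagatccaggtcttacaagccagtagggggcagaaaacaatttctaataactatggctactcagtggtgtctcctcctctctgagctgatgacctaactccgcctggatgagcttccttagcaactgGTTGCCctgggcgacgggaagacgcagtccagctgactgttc
These 4 begin nearest to the start site among 7 genes with the arm whose position was read. In the other 3 it begins at -36 (Wdr49), -52 (Cfap46) and -222 (Cfap47). The Spef2 promoter holds the arm in the orientation opposite to the other three.

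Most genes of the dynein arms were detected. Of 12 outer arm genes outside the rule 10 had at least 10 UMIs, as did all 10 inner arm genes. Each of these was more than 2-fold above astrocytes, against 1696 of the 6142 genes with at least 10 UMIs. Summed over the list, outer arm genes stood at 6995 CPM against 141 in astrocytes and 178 in other nuclei, and inner arm genes at 12536 against 100 and 168. Dnah9, an outer arm heavy chain, stood at 2750 ± 403 CPM against 13.7 CPM in astrocytes, and Dnah5, another, at 1071 ± 151 against 16.7. Dnah12, an inner arm heavy chain, stood at 3984 ± 666 CPM against 18.5, Dnah6 at 1707 ± 313 against 1.55 and Dnah7 at 1526 ± 192 against 18.3. Of 15 dynein assembly factors, which fold and load dyneins in the cytoplasm, 13 had at least 10 UMIs and 12 were more than 2-fold above. Dnaaf11 stood at 680 ± 114 CPM against 2.61, while Dnaaf9 was also high in astrocytes (1481 ± 104 against 1050 CPM). These genes helped set the 1% limit, so their height here describes the 138 nuclei.

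The genes of the structures that steer the dyneins were also above astrocytes. Radial spoke genes summed to 2938 CPM against 96.9 CPM, nexin-dynein genes to 7804 against 208 and microtubule inner proteins to 6245 against 177. At least 10 UMIs were found for 12 of 13 radial spoke genes, 13 of 15 central pair genes, 15 of 15 genes of the nexin-dynein complex and its ruler, and 24 of 28 microtubule inner proteins. Each of those was more than 2-fold above astrocytes, against 1696 of the 6142 genes with at least 10 UMIs. Spag16, a central pair protein, stood at 4747, 5037 and 5907 CPM in the saline libraries and 5937, 5290 and 4573 in the naloxone libraries (mean 5248 ± 576 SD, n = 6), against 4.33 CPM in astrocytes. The 2 groups overlap. Hydin, whose loss causes hydrocephalus in mice, stood at 2601 ± 478 CPM against 12.9, and Cfap54 at 3197 ± 460 against 24.9. Spef2 stood at 2472 ± 270 CPM against 21.2. Cfap44, which binds the dynein tether, stood at 1533 ± 168 CPM against 0.887, and Drc1, a core part of the nexin link, at 1033 ± 227 against 58.9. Enkur, a microtubule inner protein, stood at 849 ± 275 CPM against 16.3.

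Genes that motile and primary cilia share were also found in astrocytes. Of 25 intraflagellar transport genes, 23 had at least 10 UMIs. More than 2-fold above astrocytes were 18 (6.62% of all genes), and 1 was more than 2-fold below (16.3%). The list summed to 5608 CPM against 1559 in astrocytes and 1543 in other nuclei. Ift74 stood at 757 ± 158 CPM against 103, and Ift88 at 653 ± 136. Planar cell polarity genes, which align the beat of the cilia, had 7 of 16 more than 2-fold above and 2 below, against the same shares of all genes. Prickle2, a core polarity protein, stood at 1758 ± 514 CPM against 245 in astrocytes, with saline libraries between 1670 and 2676 and naloxone libraries between 1301 and 1447.

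**Figure D3:**
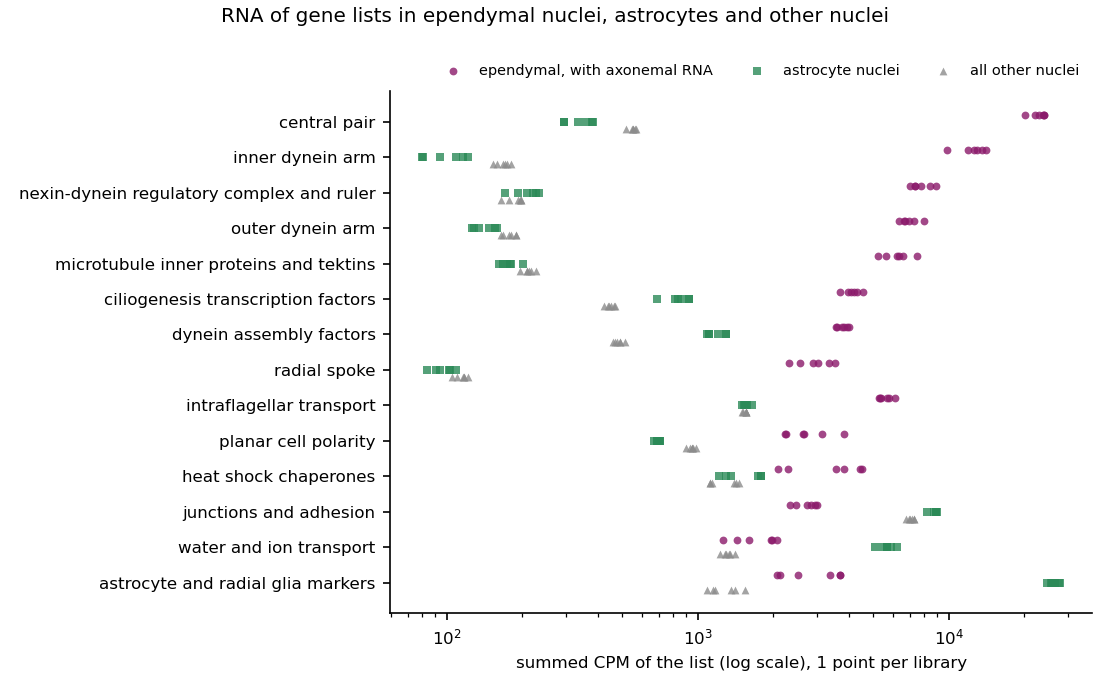
Summed CPM of 14 gene lists (x axis, log scale), 1 point per library, in the 138 ependymal nuclei with axonemal RNA (purple circles), astrocyte nuclei (green squares) and all other nuclei (grey triangles). Central pair genes sum to 22867 CPM in ependymal nuclei and 341 in astrocytes, whereas junction, transport and astrocyte marker lists lie to the left of astrocytes.

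Astrocyte genes were low but not absent. Of 18 astrocyte and radial glia markers, 10 were more than 2-fold below astrocytes (16.3% of all genes) and 1 more than 2-fold above (6.62%). The list summed to 2908 CPM against 26348. Gpc5 stood at 810 ± 490 CPM against 14586 in astrocytes and Slc1a3, a glutamate transporter, at 263 ± 44.2 against 2234. Levels near those of astrocytes were found for S100b, a calcium-binding protein, at 564 ± 236 against 505 CPM and for Aqp4, the water channel, at 362 ± 89.9 against 284 CPM with 9.79 CPM in other nuclei. The gene more than 2-fold above was Vim, an intermediate filament of ependymal and progenitor cells, at 234 ± 105 against 2.23 CPM. It was named after its values were seen.

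Transport and junction genes summed to less than in astrocytes, at 1716 against 5675 CPM and 2713 against 8769 CPM, while the medians over the listed genes were close (43.0 against 49.6 and 82.5 against 93.8 CPM). Of 25 water and ion transport genes, 9 were more than 2-fold below astrocytes (16.3% of all genes) and 3 above (6.62%). Slc4a4, a sodium bicarbonate cotransporter, stood at 163 ± 128 CPM against 2710. Of 23 junction and adhesion genes, 8 were more than 2-fold below and 0 above, against the same shares of all genes. Ctnna2, an alpha-catenin, stood at 653 ± 109 CPM against 1086 and Cdh2, N-cadherin, at 293 ± 109 against 410.

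Markers of neighbouring ventricular cells summed to less than in astrocytes, for the choroid plexus list mainly through Trpm3. Choroid plexus genes summed to 317 CPM against 5004 CPM. Trpm3 alone had astrocyte means of 4427 CPM with saline and 5223 CPM with naloxone. The median over the listed genes was higher in nuclei with axonemal RNA, at 6.68 CPM against 1.57 CPM in astrocytes. Of the 13 genes, 2 were more than 2-fold above astrocytes (Clic6, 64.9 against 1.98 CPM, and Folr1, 28.4 against 0.0805 CPM). Another 6 were more than 2-fold below, against 6.62% of all genes above and 16.3% below. Ttr, the defining gene of the list, had 0 UMIs. Tanycyte markers summed to 57.9 CPM against 343 in astrocytes and Rax had 0 UMIs. Microglia markers summed to 86.9 CPM against 89.8 in astrocytes and 118 in other nuclei, and neuron markers to 982 against 1412 and 7877. The rule limited Gad1 and Gad2 of the neuron list and excluded Csf1r of the microglia list. These sums are therefore in part set by the rule, also in astrocytes, which met the same exclusions. Immediate early genes had 8 of 20 members with any UMI, against 13599 of all 25625 genes, and Fos, Arc and Npas4 had 0. The opioid receptors Oprm1, Oprk1 and Oprd1 gave 2, 1 and 0 UMIs, too few to compare groups.

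In all 154 nuclei, 131 of 1661 genes passed an adjusted p of 0.05 (7.89%) between naloxone and saline by edgeR's quasi-likelihood test with Benjamini-Hochberg adjustment. Of these, 123 were higher (7.41%) and 8 lower (0.482%). The higher ones had log2 fold changes from 1.05 to 3.91 (median 2.33). An unadjusted p under 0.05 was found for 351 genes (21.1%). The groups of libraries did not overlap for 122 of the 123, nor for 29.9% of all genes tested. The 16 nuclei without axonemal RNA held a median of 79.3% of the UMIs of the 123 genes, against 17.7% for all genes tested. Among the 138 nuclei with axonemal RNA, 0 of 1127 genes passed (0%), with 64 at an unadjusted p under 0.05 (5.68%) and 0 calls by DESeq2. Requiring all 3 detectable markers also left 0 calls. The 131 calls became 2 with a marker sum of at least 4, a set of 182 nuclei that includes all 154, and 36 without naloxone 4.

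Nkain2, a membrane protein of neurons, had the smallest p. In all 154 nuclei it stood at 67.8, 344 and 165 CPM in saline 1, 2 and 3 and at 3226, 3343 and 2266 CPM in naloxone 4, 5 and 6. The groups were far apart, with a log2 change of 3.86 (SE 0.41, edgeR quasi-likelihood test, Benjamini-Hochberg adjusted p = 0.000725). With axonemal RNA the same libraries stood at 67.8, 182 and 185 CPM and at 200, 401 and 156 CPM, and the groups overlapped. The 16 other nuclei held 91.8% of its UMIs.

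Nrxn3, a presynaptic adhesion protein, followed this course. Its levels in all 154 nuclei were 113, 705 and 206 CPM with saline and 3037, 3169 and 5000 CPM with naloxone (log2 change 3.37, SE 0.47, edgeR adjusted p = 0.00280). With axonemal RNA they were 113, 450 and 231 CPM and 150, 401 and 1913 CPM, so that only naloxone 6 stood above every saline library (log2 change 1.55, edgeR adjusted p = 0.778). Also among the 20 smallest p were Dlg2 (postsynaptic scaffold), Gria1 (AMPA receptor subunit), Syt1 (calcium sensor of synaptic vesicles), Anks1b, Cntnap5a, Tenm2, Tenm3, Robo1 (Slit receptor), Epha6 (ephrin receptor), Fat3 (atypical cadherin) and Ptprd (receptor phosphatase). Rbfox1 (splicing factor of neurons), Mctp1, Rapgef5, Dok6, Marchf1, Slc35f1 and Samd12 completed them. Of the 123 genes, 33 could be tested in the 138 nuclei, and their median log2 change there was 0.40 against 1.70 in all 154. Of the 33, 24 had a log2 change above 0 there, 7 had an unadjusted p under 0.05 (5.68% of all genes tested there) and 9 had groups that did not overlap (12.2%). The 7 and the 9 count both directions, and both include Adgrb3, which had a log2 change of -1.12 there. Tenm3 and Ptprd turned to -0.20 and -0.38 there, from 1.53 and 1.70.

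The neuron list moved with these calls. Of its 15 genes 3 were tested, and Syt1 (log2 change 2.28) and Pde10a (1.57) were called higher (edgeR adjusted p = 0.00682 and 0.0289). The summed list stood at 520, 1230 and 741 CPM in the saline libraries and at 2549, 3763 and 2084 CPM in the naloxone libraries for all 154 nuclei. For the 138 it stood at 520, 969 and 784 CPM and at 834, 2084 and 700 CPM, and no listed gene was at 0. Pde10a, a phosphodiesterase of striatal neurons, stood in the 138 at 67.8, 156 and 185 CPM with saline and at 250, 281 and 280 CPM with naloxone. These groups did not overlap (log2 change 1.01, edgeR adjusted p = 0.778). Among the junction genes, 2 of 8 tested were called higher (7.41% of all genes tested), Ank3 (log2 change 1.63), which anchors axonal channels, and Ctnna2 (1.23). Ctnna2 in the 138 nuclei had a log2 change of 0.15 (edgeR adjusted p = 0.943). Trpm3, from the choroid plexus list and abundant in astrocytes, lay between 0 and 82.0 CPM with saline and between 248 and 936 CPM with naloxone (log2 change 3.40, edgeR adjusted p = 0.00737). With axonemal RNA the ranges were 0 to 86.6 and 62.2 to 401 CPM, which overlap. The part of neuronal RNA in these calls was not tested beyond the count without the 16 nuclei.

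Unlike the 123, the 8 genes called lower had their UMIs mostly in the 138 nuclei. The 16 nuclei held a median of 1.43% of the UMIs of these 8. The 7 that could be tested in the 138 were all lower there too, with a median log2 change of -0.75 against -1.25. None passed there after adjustment, 6 had an unadjusted p under 0.05, and in 6 the groups did not overlap (12.2% of all genes tested there). They were picked as lower on nearly the same counts, so these values are no separate support. The share of all genes is for the same reason not a like base. The 138 nuclei supplied 44239 of 44239, 115540 of 121938 and 21671 of 24292 UMIs of the chosen nuclei in the saline libraries, and 59966 of 100425, 24955 of 40388 and 64284 of 98392 in the naloxone libraries.

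Col11a1, a fibrillar collagen chain, stood at 4046, 2739 and 2758 CPM with saline and 1185, 1486 and 1413 CPM with naloxone in all 154 nuclei (log2 change -1.06, SE 0.24, edgeR adjusted p = 0.0161). In the 138 it stood at 4046, 2891 and 3046 CPM against 1901, 2404 and 2069 CPM. Every saline library lay above every naloxone library in both sets, and the log2 change in the 138 was -0.61 (SE 0.19, edgeR adjusted p = 0.581). P4ha1, a prolyl hydroxylase that acts on collagen, stood in the 138 at 226, 389 and 461 CPM with saline and at 100, 120 and 171 CPM with naloxone. That log2 change was -1.35 (SE 0.41, edgeR adjusted p = 0.581), against -1.66 (adjusted p = 0.0199) in all 154 and -0.67 (adjusted p = 0.0878) in astrocytes. Synpo2, an actin-binding protein, stood in the 138 at 678, 450 and 415 CPM and at 267, 281 and 249 CPM (log2 change -0.93, edgeR adjusted p = 0.691). Ahsa2, a relative of an HSP90 activator, stood there between 185 and 286 CPM with saline and between 40.1 and 140 CPM with naloxone, too low for the test. Riiad1, Lrguk, Tpm1 (tropomyosin) and Wwc1 were the other 4.

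Within the 138 nuclei alone, the 5 genes of smallest p in each direction, with no overlap between groups and a mean of at least 50 CPM, had adjusted p from 0.480 to 0.634. Higher were Actbl2, Mir100hgl, LOC102554815, Lsamp and Itm2c. Lsamp, an adhesion protein abundant in astrocytes, stood at 1831, 2553 and 831 CPM with saline and 3869, 2765 and 3531 CPM with naloxone (log2 change 0.92, SE 0.26, edgeR adjusted p = 0.480). Lower were Ddx5, P4ha1, Col11a1, Adgrb3 and U2surp. Ddx5, an RNA helicase, stood at 1492, 1515 and 1430 CPM with saline and 784, 882 and 887 CPM with naloxone, narrow within each group (log2 change -0.76, SE 0.22, edgeR adjusted p = 0.480). Adgrb3, an adhesion receptor of synapses, differed in direction between the 2 sets. It was higher with naloxone in all 154 nuclei (log2 change 1.05, edgeR adjusted p = 0.0268) and had a log2 change of -1.12 (adjusted p = 0.581) in the 138, from 791, 727 and 1061 CPM to 417, 601 and 187 CPM.

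**Figure D4:**
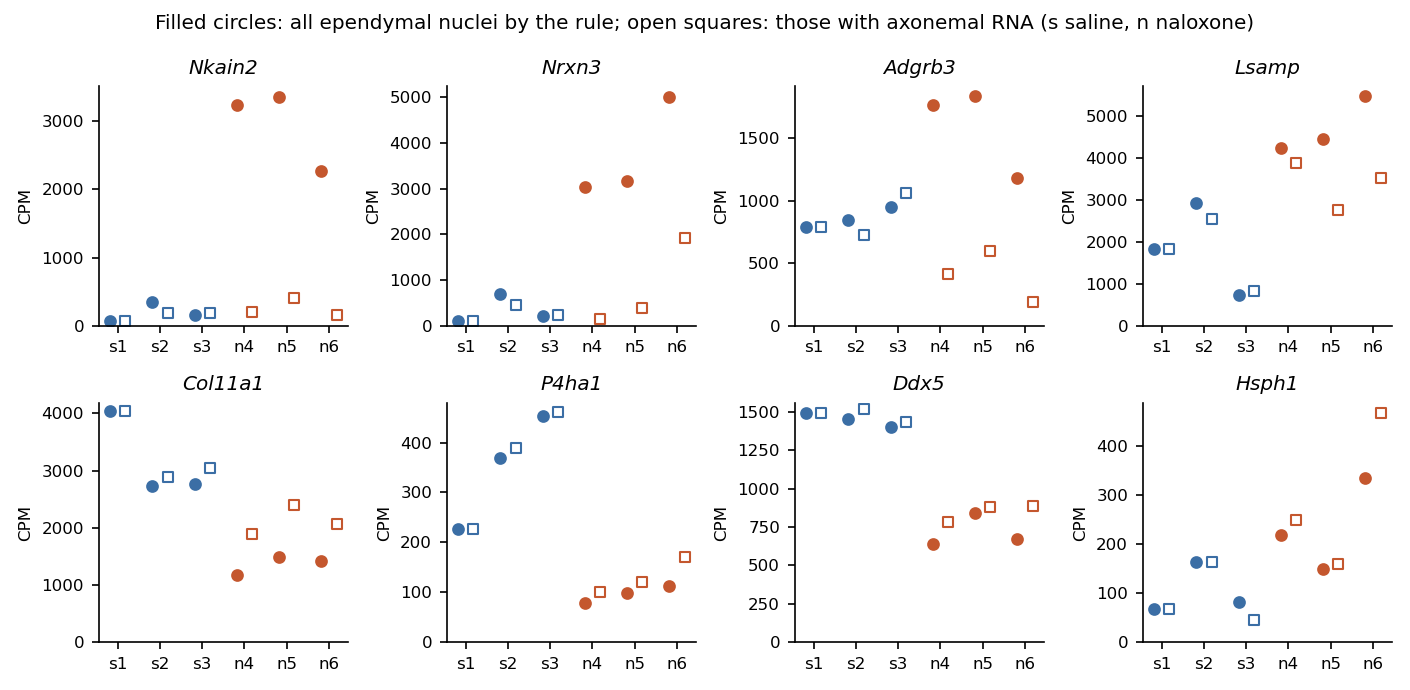
CPM (y axis, linear, from 0) of 8 genes in each library (s1 to s3 saline, n4 to n6 naloxone). Filled circles are all 154 nuclei and open squares the 138 with axonemal RNA; Nkain2 lies at 3226 CPM in naloxone 4 in the first set and at 200 CPM in the second, whereas Col11a1, P4ha1 and Ddx5 keep every naloxone library below every saline library in both.

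None of the listed axonemal genes was called in either set by edgeR. In all 154 nuclei each of the 14 central pair genes tested was lower with naloxone (median log2 change -0.53), as were all 9 inner arm genes (-0.64), all 6 radial spoke genes (-0.73) and all 11 nexin-dynein genes (-0.66), against a median of 0.02 over all 1661 genes. Of these, 7, 6, 3 and 4 had an unadjusted p under 0.05, and none of them did in the 138. In the 138 nuclei the medians were -0.06, -0.15, -0.27 and -0.11, with 6 of 14, 2 of 9, 2 of 6 and 3 of 10 genes higher, against 0.02 over all 1127. Microtubule inner proteins were lower in 10 of 11 in all 154 (median -0.54, 5 at an unadjusted p under 0.05) and in 8 of 12 in the 138 (median -0.11). There, 2 had an unadjusted p under 0.05 (5.68% of all genes), Stpg1 with a log2 change of -0.73 and Enkur with -0.55. Outer arm genes were lower in 8 of 9 in all 154 (median -0.57, 3 at an unadjusted p under 0.05) and in 5 of 7 in the 138 (median -0.10). These counts include markers that chose the nuclei, namely Spag17 (central pair), Cfap43 (nexin-dynein) and Dnah11 (outer arm). Their log2 changes were -0.41, -0.41 and -0.06 in all 154 and 0.07, 0.06 and 0.16 in the 138. Changing the scaling factors from TMM to RLE moved these medians by at most 0.01 and turned 1 inner arm gene and 1 microtubule inner protein in the 138. Axonemal genes took 6.84%, 6.19% and 5.96% of all UMIs of the 154 nuclei in the saline libraries and 3.95%, 3.50% and 4.01% in the naloxone libraries. In the 138 the shares were 6.84%, 6.51% and 6.66% against 6.37%, 5.51% and 6.01%. The groups still did not overlap there, while the medians per nucleus did (6.76%, 6.95% and 6.48% against 6.43%, 6.12% and 6.63%). Intraflagellar transport genes had a median of -0.20 in all 154 and 0.07 in the 138.

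**Figure D5:**
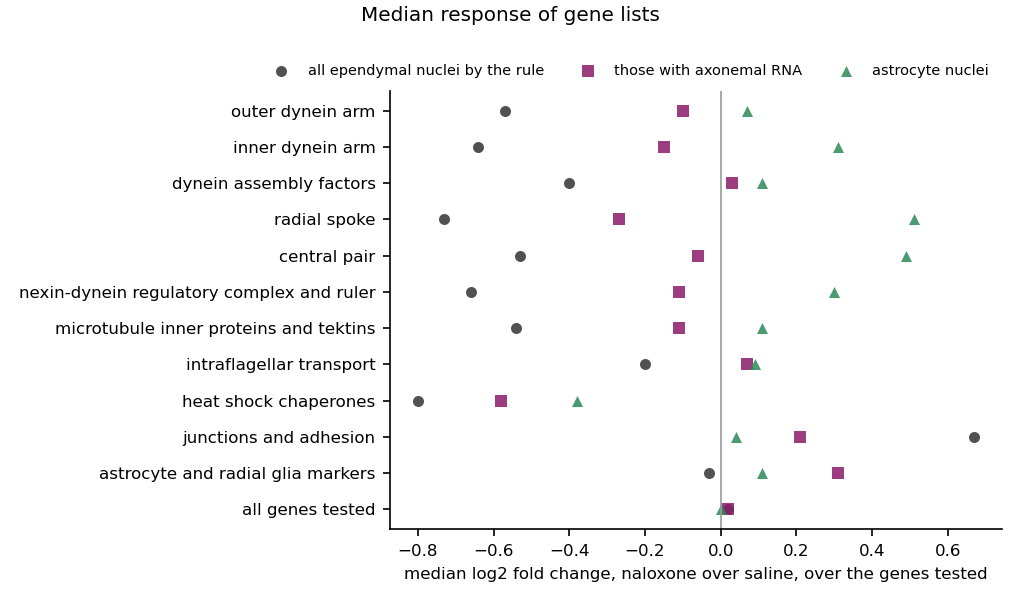
Median log2 fold change of naloxone over saline (x axis) over the tested genes of each list, in all 154 nuclei (dark circles), in the 138 with axonemal RNA (purple squares) and in astrocyte nuclei (green triangles). Central pair genes lie at -0.53, -0.06 and 0.49, and heat shock chaperones at -0.80, -0.58 and -0.38. The central pair, nexin-dynein and outer arm lists include the markers Spag17, Cfap43 and Dnah11 of the rule.

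Heat shock chaperones had the lowest list median. Of 10 tested in all 154 nuclei, 8 were lower (median log2 change -0.80), 6 of them at an unadjusted p under 0.05, and 1, Ahsa2, was called (edgeR adjusted p = 0.0310). In the 138 nuclei 5 of 6 were lower (median -0.58) and 0 were called. Stip1, a cochaperone of HSP70 and HSP90, stood there at 226, 234 and 277 CPM with saline and 100, 120 and 156 CPM with naloxone (log2 change -0.87, edgeR adjusted p = 0.883). In astrocytes 20 of 22 were lower (median -0.38), and Hsph1 and Dnaja1 were called. Of the glucocorticoid response list 2 genes could be tested in all 154 nuclei and 0 were called, whereas in astrocytes 18 could be tested and 3 were called higher, against 0.118% of all genes called in either direction there. All 13 astrocyte calls were lost when any 1 of the saline libraries was left out.

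Astrocyte nuclei gave 13 calls among 10977 genes (0.118%). The response of the chosen nuclei was set against theirs in 1 edgeR model with library as a block. Its p-values rest in effect on a spread fitted over all genes, so a gene whose own libraries scatter widely can still be called. For all 154 nuclei 208 of 10142 genes differed (2.05%), 199 of them with a higher change in the 154 (1.96%). The 9 with a lower change include the dyneins Dnah12 (difference in log2 change -1.93, edgeR adjusted p = 0.00443) and Dnai3 (-4.20, edgeR adjusted p = 0.0247). Both are scarce in astrocytes. Dnai3 had 7 UMIs there and stood at 0 CPM in every saline library. Dnah12 had a mean there of 11.1 CPM with saline and 25.9 CPM with naloxone (log2 change 1.26), and its log2 change in the 138 was -0.20. For the 138 the test called 2 of 10249 (0.0195%), Hsph1 and ENSRNOG00000063848, a gene with no symbol in the files. For the 138, inner arm genes were lower in the difference in 9 of 10 and central pair genes in 11 of 14, with medians of -0.66 and -0.62 against -0.06 over all genes, and none was called. Spag17, a marker of the rule that the choice of astrocytes also limited, is among these central pair genes at -1.52. The median log2 changes of the tested genes of these lists were 0.31 and 0.49 in astrocytes and -0.15 and -0.06 in the 138.

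The response of Hsph1, an HSP110 chaperone, differed between the 2 cell types. Its own change was not called in all 154 nuclei (log2 change 1.14, edgeR adjusted p = 0.141) and was not tested in the 138, where its counts were too low, while in astrocytes it was lower (log2 change -1.13, edgeR adjusted p = 0.0158). In the 138 nuclei it stood at 67.8, 164 and 46.1 CPM with saline and at 250, 160 and 467 CPM with naloxone, from 3, 19, 1, 15, 4 and 30 UMIs. In astrocytes it stood at 95.1, 112 and 105 CPM with saline and at 41.7, 43.0 and 55.1 CPM with naloxone. The ependymal groups overlap at 164 and 160 CPM, and the astrocyte groups do not. The difference in log2 change was 2.46 (SE 0.53, edgeR adjusted p = 0.0159), and DESeq2 gave an adjusted p of 1.00. The call was lost without saline 1, saline 3, naloxone 4 or naloxone 6, where the difference ran between 2.09 and 3.50 over all 6 libraries left out in turn. ENSRNOG00000063848 rested on saline 1, with 194 UMIs there and 0 to 4 in each other library (difference -5.79, SE 1.22, edgeR adjusted p = 0.0159, and -0.38 without saline 1). Its call was also lost without naloxone 4 or naloxone 6, with differences of -5.32 and -5.93, and with DESeq2 (-4.25).

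The test was tried on simulated counts. At the depth of the 154 nuclei, edgeR recovered 1% of 200 genes changed by 1 on the log2 scale, 81% of those changed by 2 and 85% of those changed by 3. Genes that the filter removed count here as not recovered. Of the changed genes tested, 2 of 175, 162 of 169 and 170 of 170 were recovered, with 0, 7 and 11 false calls. In astrocytes 67% were recovered at a change of 1 (134 of 196 tested, with 13 false calls). No such counts were made for the 138 nuclei.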

How the data were processed

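Single-nucleus RNA was measured with 10x GEM-X 3' v4 chemistry in 6 libraries. The deposited values are raw UMI counts, not normalized, for each gene in each barcode. Per the submitters' processing notes, Cell Ranger 9.0.1, Seurat 5.2.1, R 4.4.0 and the build mRatBN7.2 were used, and the annotation and the counting of introns are not given in the sources used here. The files hold 25629 genes, of which 289 symbols serve more than 1 row and were kept apart by identifier. The labels' selection of nuclei was not used. The members and gene lists were chosen with earlier results of these data known, and alternatives that use the split by axonemal RNA or Drc12 were chosen after seeing the data.

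UMI counts were summed per library over the chosen nuclei and tested with edgeR 4.0.16 (R 4.3.3): TMM factors, filterByExpr, the quasi-likelihood test, Benjamini-Hochberg adjustment over all genes tested and a threshold of 0.05. Called means past that threshold. Log2 changes are naloxone over saline. The difference from astrocytes was the interaction of cell type and treatment, fitted with a block for each library. Shares of nuclei were compared by exact permutation (scipy 1.17.1). Wilson intervals, and limits from a count of 0 (3 counts), cover counting error only. Doublets were marked, not removed, as the highest Scrublet scores (scanpy 1.11.5) at 0.4% per 1000 nuclei in a library. The test was tried on simulated counts with 200 changed genes, and with no change it made 0 calls.

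Genes named in the text are the 5 markers, up to 4 genes per list by mean CPM (for naloxone by smallest p, and those called), the 20 leading genes with at least 3 UMIs in each library of 10 or more ependymal nuclei, and for naloxone the 20 calls of smallest p and the 5 genes of smallest p in each direction with groups that do not overlap. Other names are genes at 0 that define a cell type, the lower calls, and those said to be chosen after their values were seen. The alternatives were RLE factors, no filter on low counts, DESeq2 1.42.0, each library left out, a marker sum of at least 4 or 8, all 3 detectable markers, at least 1000 genes, no marked doublets, no nuclei with Xist and Y-linked UMIs, no library under 10 ependymal nuclei, sums by sex, all barcodes as denominator and thinning to 1000 UMIs. Promoters came from RefSeq (GRCr8), and all libraries of the series were used.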

Additional observations from a re-analysis of the deposited data

Results flagged for a closer look

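In the test of ependymal against astrocyte responses, some genes named above had changes that differed between the 2 cell types (edgeR quasi-likelihood interaction term, Benjamini-Hochberg adjusted p under 0.05). For the 138 nuclei with axonemal RNA the differences in log2 change were 2.46 for Hsph1 and -5.79 for ENSRNOG00000063848. For all 154 nuclei they were 4.26 for Nkain2, 4.13 for Cntnap5a, 3.83 for Dok6, 3.59 for Fat3, 3.54 for Nrxn3, 3.72 for Marchf1, 2.88 for Rbfox1, 3.14 for Dlg2, 3.90 for Mctp1 and 3.03 for Rapgef5. Further such differences were 2.81 for Tenm2, 3.36 for Epha6, 3.47 for Slc35f1, 2.94 for Anks1b, 2.65 for Gria1, 1.77 for Ptprd, 2.68 for Robo1, 2.26 for Syt1 and 2.88 for Samd12. Negative differences in all 154 were called for 9 genes, among them Synpo2 at -2.08, Dnah12 at -1.93, Dnai3 at -4.20 and ENSRNOG00000063848 at -6.28. Dnai3 had only 7 UMIs in astrocytes. In the 138 nuclei none of the differences of all 154, other than that of Hsph1 and ENSRNOG00000063848, was called.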

How the results depend on the processing

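The 131 calls in all 154 nuclei became 207 with no filter on low counts and 86 with DESeq2. They became 2 with a marker sum of at least 4, 1 with a sum of at least 8, 0 with all 3 detectable markers and 0 in nuclei with axonemal RNA. Sums by library and sex gave 47 among 203 testable genes. That fit took the male and the female sum of a library as independent, so its count does not measure the spread between libraries. Leaving out each library gave 36 to 170 calls, with 75 without saline 1, 36 without naloxone 4 and 84 without naloxone 6. In the 138 nuclei with axonemal RNA, 0 calls became 2 with no filter, and 0 to 1 with a library left out. Astrocytes gave 218 calls with no filter, 56 with DESeq2 and 0 to 18 with a library left out, with 0 without each saline library and 8 without naloxone 6. The 208 differences between all 154 nuclei and astrocytes became 56 with DESeq2, 2 in nuclei with axonemal RNA and 123 to 190 with a library left out, lowest without saline 1 and next without naloxone 6 (134). The 2 differences in the 138 became 0 with DESeq2 and 0 to 3 with a library left out. The cause of these shifts was not tested, except that fewer nuclei, genes or samples entered where a set was narrowed. The difference in ependymal share turned to 0.00227 points with a marker sum of at least 4, 0.0163 with at least 1000 genes, 0.00290 without marked doublets and 0.00139 without nuclei with Xist and Y-linked UMIs, and ran from -0.0712 to 0.0698 with a library left out. The sex difference ran from -0.0499 to 0.0483. Of 411 gene values under alternatives, 331 kept direction and call, 75 lost the call and 5 turned, namely Tenm3 (-0.40 with a sum of at least 8, -0.20 with 3 markers, -0.20 with axonemal RNA) and Ptprd (-0.74 and -0.38 with the first and last of these). Without saline 3, the only library under 10 ependymal nuclei, 98 calls were made. No paired analysis was possible because the saline and naloxone libraries share no replicate number.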

Other observations

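ENSRNOG00000063848, which has no symbol in the files or in the RefSeq gene table, gave 290 UMIs in all barcodes of saline 1 and 48, 28, 50, 35 and 49 in those of saline 2 and 3 and naloxone 4, 5 and 6. In saline 1, 194 UMIs lay in 8 of the 19 ependymal nuclei with axonemal RNA of that library, with 7 to 46 UMIs in each. None of these 8 nuclei held a Y-linked UMI and 4 held Xist, while 5 of the 19 held Y-linked UMIs. All nuclei of saline 1 that passed the filters gave 284 UMIs, so most of its RNA there came from ependymal nuclei. The other libraries gave 4, 0, 2, 1 and 3 UMIs in ependymal nuclei with axonemal RNA.

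The rule leaves out nuclei with strong axonemal RNA. At least 2% of UMIs in the 108 axonemal genes was found in 220 nuclei, of which 137 were among the 154 and 83 were not. Of the 83, 52 fell short of the marker sum alone, 25 broke an exclusion alone and 6 did both, and their median was 1429 UMIs against 2109. Over all 368 nuclei with at least 1%, the share of nuclei was 0.607% ± 0.422 with saline and 0.504% ± 0.137 with naloxone (SD, n = 3 each; exact two-sided permutation p = 0.900).

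Hsp90aa1, an HSP90 chaperone, stood at 1089 CPM in ependymal nuclei with axonemal RNA of naloxone 6 and between 200 and 415 CPM in the other libraries, and 43 of its 70 UMIs there lay in 1 nucleus.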
